A study of Mus musculus with 6 samples.

Results

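Cytosolic ribosomal protein genes encode the proteins of the large (60S) and small (40S) subunits of the ribosome. They were taken by symbol: every row of the gene count tables named Rpl or Rps plus a number, with an optional a, x or y and an optional l or l1 at the end, together with Rplp0, Rplp1, Rplp2 and Rpsa. The rule found 83 of 23420 gene rows, 52 of them for the 60S and 31 for the 40S subunit. All 83 are annotated as protein coding. Ribosomal protein genes with other kinds of names, such as Gnb2l1 (now called Rack1), lie outside the rule.

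The libraries came from TP-DSCs and DP-DSCs, dysplastic stem cell subpopulations sorted by flow cytometry from Meta4, a line of mouse dysplastic epithelial organoids, with 3 libraries of each made from polyadenylated RNA with a stranded kit. The labels do not spell out DP and TP. From knowledge of the study, DP-DSCs carry the surface markers CD133 and CD166, and TP-DSCs carry CD44v6 as well. All libraries come from this single organoid line, and the labels name no treatment, genotype or animal age. The labels call the samples independent without saying whether they were separate cultures or sorts, so each p-value reflects the spread of these samples only, which may be technical.

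Most ribosomal proteins are present in equal numbers per ribosome, each made from its own gene, and their mRNAs are among the most abundant in dividing cells. Most of these mRNAs begin with a C followed by a run of pyrimidines, the 5′ terminal oligopyrimidine (TOP) tract, through which mTORC1 and the protein LARP1 set how much of each mRNA is translated. Their genes have left many processed pseudogenes in the mouse genome, so a short read from one of these mRNAs can match several places.

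The starts of some members are shown because the TOP tract is known from many of these mRNAs and was not used by the rule. Each line is the 30 bases around a RefSeq start (GRCm38.p6), 15 upstream and 15 from the start on, 5′ to 3′ on the gene's strand, and the capitals mark the pyrimidine tract, read from the C nearest to the start that 4 or more C or T follow. The first 5 members are examples in which this C lies at the annotated start, with a C or T also just upstream of it. They do not stand for all members, and the other lines are paralogues and their partners.
Rpl35 (chr2:39005117-39005146, minus strand): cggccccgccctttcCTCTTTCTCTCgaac
Rps10 (chr17:27635230-27635259, minus strand): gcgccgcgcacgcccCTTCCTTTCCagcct
Rps18 (chr17:33955651-33955680, minus strand): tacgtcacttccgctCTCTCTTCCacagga
Rps6 (chr4:86857353-86857382, minus strand): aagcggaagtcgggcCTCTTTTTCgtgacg
Rpl15 (chr14:18270972-18271001, minus strand): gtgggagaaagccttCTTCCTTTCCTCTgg
Rps27 (chr3:90213634-90213663, minus strand): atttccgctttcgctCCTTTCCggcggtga
Rps27l (chr9:66946071-66946100, plus strand): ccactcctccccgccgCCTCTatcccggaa
Rpl22 (chr4:152325711-152325740, plus strand): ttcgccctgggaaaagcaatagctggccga
Rpl22l1 (chr3:28805493-28805522, plus strand): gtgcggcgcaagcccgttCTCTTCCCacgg
Rpl36a (chrX:134585639-134585668, plus strand): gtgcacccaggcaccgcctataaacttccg
Rpl36al (chr12:69184053-69184082, minus strand): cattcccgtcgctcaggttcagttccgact
Rpl7l1 (chr17:46782642-46782671, minus strand): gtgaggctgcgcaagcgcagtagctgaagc
A C followed by 4 or more C or T, read on the gene's strand within 5 bases of a RefSeq start, was present in 29 of the 63 members with a start in the table, 46.0%, against 21.2% of 27025 genes of all kinds. The same search 100 bases upstream of the start found the tract in 27.0% of the members and 22.6% of all genes. The tract was found at Rps27, Rps27l and Rpl22l1, and not within 5 bases of the start of Rpl22, Rpl36a, Rpl36al and Rpl7l1. No match says only that no tract begins within those 5 bases; the line of Rpl36a holds such letters farther from the start.

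Gene reads, counted without reads in no gene and ambiguous reads, numbered 24949764, 17015581 and 31068454 in TP-DSCs replicates 1, 2 and 3 and 32594133, 32671039 and 27027919 in DP-DSCs replicates 1, 2 and 3. Replicate 1 of each group has the prefix 3840 in its library name and the other 4 libraries have 4140; the labels do not say what the prefix marks. The labelled epithelial cell type fitted its markers: the summed level of 6 of 6 epithelial markers was 7730 to 9296 counts per 1000000 gene reads (CPM) in TP-DSCs and 8291 to 10099 CPM in DP-DSCs. Fibroblast, immune, endothelial and red cell markers summed to at most 3.19 CPM per list in any library. Of these lists, 6 of 6, 5 of 6, 3 of 3 and 1 of 3 genes had a row, so the red cell value rests on 1 gene. Genes with at least 1 read averaged 10710 ± 235 in TP-DSCs and 13632 ± 1005 in DP-DSCs (SD, n = 3 each), and reads in no gene made up 18.6 ± 2.12% of all reads in TP-DSCs and 14.9 ± 0.651% in DP-DSCs. Both measures separated the groups, and their part in the results on ribosomal protein genes was not tested.

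The members fell into 3 classes of level. A first class of 76 members had 1000 or more reads on average and at least 97.4 CPM in every library. The second class comprised Rpl30, Rpl34 and Rps27, which had few reads or none, and the third comprised 4 members without a read in any library, namely Rpl26 and the paralogues Rpl3l, Rpl10l and Rpl39l. The tissue-restricted paralogues are known from other organs: Rpl3l from heart and skeletal muscle, and Rpl10l and Rpl39l from the testis. Rpl26, Rpl30, Rpl34 and Rps27, by contrast, encode proteins that are part of the ordinary ribosome.

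Those 4 ordinary members together had 1528 reads over the 6 libraries. Rpl26, a protein near the exit of the peptide tunnel, was listed at 0 in all 6. Rpl30, a 60S protein, was listed at 0 reads in TP-DSCs replicates 1, 2 and 3 and had 14, 29 and 12 reads in DP-DSCs replicates 1, 2 and 3. Rpl34, also of the 60S subunit, had 0, 167 and 0 reads in TP-DSCs and 176, 246 and 102 in DP-DSCs, so the reads of TP-DSCs replicate 2 lay within the range of DP-DSCs and those of the other TP-DSC libraries below it. Rps27, a zinc finger protein of the 40S subunit, had 57, 0 and 456 reads in TP-DSCs and 167, 30 and 72 in DP-DSCs, and both the highest and the lowest library were TP-DSCs. For comparison, the fewest reads of any of the 76 abundant members in any library was 2429.

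Shared sequence was measured for each member on its GENCODE M21 transcript. It was the share of 75-base windows that occur, on either strand, in a transcript of another gene, also one that overlaps the member. It was 98.5% for Rps27, nearly all of it shared with Rps27rt, 65.1% for Rpl30, 57.5% for Rpl26 and 41.4% for Rpl34. None of the genes that share windows with Rps27 had a row in the tables. The rows of Gm12191, which shares most with Rpl30, and of Gm15772, which shares most with Rpl26, were at 0 reads in all libraries, and Rpl34-ps1, the pseudogene closest to Rpl34, had 8 reads in all.

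Abundant members that shared more sequence than Rpl26, Rpl30 or Rpl34 were found, and none that shared as much as Rps27. Rpl5 shared 92.5% of its windows, Rpl10 91.9%, Rps10 90.1% and Rps12 89.5%. Their mean levels were 798, 1894, 1979 and 3881 CPM per kb of transcript. Part of this sharing was with genes that overlap the member in the genome. RPS10-NUDT3 covered 91.6% of the exon bases of Rps10 on the same strand, and Fam69a covered 46.6% of those of Rpl5 on the opposite strand. The shares therefore do not measure how often a read matches several places. Of the 76 abundant members, 32 shared a larger part of their windows than Rpl26, 27 a larger part than Rpl30, 49 a larger part than Rpl34 and 0 a larger part than Rps27. Over all 83 members, 79 shared at least 1 window with another gene, mostly with pseudogenes, and 41 shared 50% or more. How the counting treated reads with several matches is not given in the sources used here, and its part in the low counts was not tested. The levels of Rpl26, Rpl30, Rpl34 and Rps27 are therefore uncertain.

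**Figure D1:**
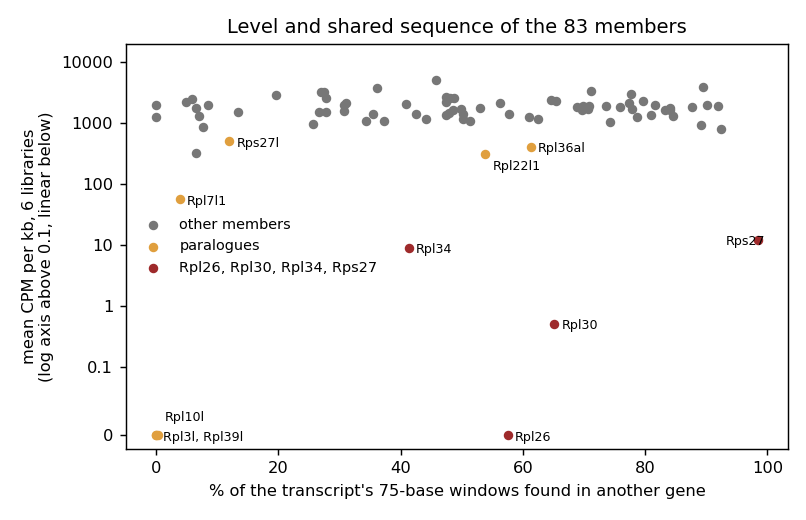
Mean CPM per kb over 6 libraries (log axis above 0.1, linear below) against the percent of 75-base transcript windows found in another gene, 1 point per member. Rpl26, Rpl30 and Rpl34 lie far below members with as much shared sequence, no abundant member shares as much as Rps27, and the paralogues lie below the main band whatever they share.

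Counts of reads rise with transcript length, so the order of levels is given per kb of transcript. The quartiles of the 76 abundant members stood at 1300 and 2145 CPM per kb, 1.65-fold apart. The median was 1643 CPM per kb over 46 members of the 60S subunit and 1817 CPM per kb over 30 members of the 40S subunit. Rplp1, an acidic protein of the stalk that binds elongation factors, had the highest mean level at 5230 ± 1527 CPM per kb in TP-DSCs and 4968 ± 844 CPM per kb in DP-DSCs (SD, n = 3 each). Its gap to the next member, Rps12, was 1218 CPM per kb, larger than the SD over the 6 libraries of either gene.

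After Rps12 at 3881 CPM per kb came Rpl41, the smallest ribosomal protein, at 3770, and then Rps2, Rps14 and Rplp0 at 3351, 3244 and 3229 CPM per kb. In this order of 76 members, the gap between neighbours was smaller than the SD of both in 69 of 75 cases. This SD includes shifts that the members of a library have in common, and neighbours were not compared within libraries. The order of such neighbours is therefore uncertain, and the comparison does not bear on members far apart in the order. The low end of the order was made of Rps27l at 509.5, Rpl36al at 410.3, Rps20 at 324, Rpl22l1 at 315 and Rpl7l1 at 57 CPM per kb. Of these 5, 4 are paralogues of another member. The value of Rps20 rests on an annotated transcript of 3706 bases for a coding length of 357 bases, and a shorter transcript in use would raise it.

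By read count, the 6 most abundant members were Rplp0, Rps2, Rpl4, Rpsa, Rplp1 and Rpl7, which together held 17.4% of the members' reads; this order is one of reads and depends on length as well as level. Rplp0, the protein that anchors the stalk to the 60S subunit, had 4948, 4435 and 3793 CPM in TP-DSCs replicates 1, 2 and 3 and 4626, 3939 and 4569 CPM in DP-DSCs replicates 1, 2 and 3. Rps2, a protein at the mRNA entry channel, had 3611, 3256 and 3167 CPM in TP-DSCs and 3162, 3056 and 3810 CPM in DP-DSCs. Rpsa, known outside the ribosome as a laminin receptor, had 2877, 2583 and 2341 CPM in TP-DSCs and 2804, 2259 and 2801 CPM in DP-DSCs. The groups overlapped for all 3 genes.

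The members together took 12.9, 9.87 and 9.36% of gene reads in TP-DSCs replicates 1, 2 and 3 and 11.7, 8.24 and 11.3% in DP-DSCs replicates 1, 2 and 3. The mean share was 10.7 ± 1.90% in TP-DSCs and 10.4 ± 1.87% in DP-DSCs (SD, n = 3 each), and the difference of 0.31 percentage points was smaller than the spread within either group. In bulk libraries such as these, fewer cells of a type and less RNA per cell cannot be told apart. Between the 2 libraries with the prefix 3840 the share was 1.20 points higher in TP-DSCs, and among the 4 libraries with the prefix 4140 it was 0.133 points lower in TP-DSCs. Leaving out 1 library moved the difference between -0.774 points without TP-DSCs replicate 1 and 0.982 points without TP-DSCs replicate 3, so its sign depends on single libraries; without DP-DSCs replicate 2 it was -0.765 points.

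**Figure D2:**
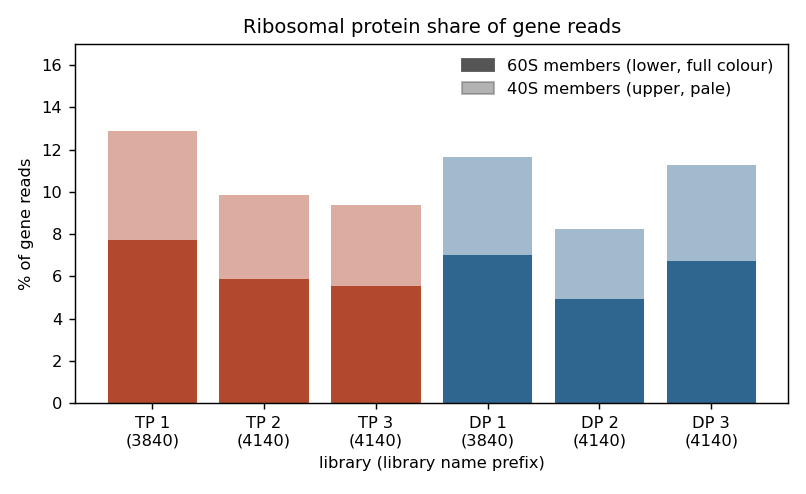
Percent of gene reads taken by the ribosomal protein genes in each library, with 60S members in full colour below and 40S members pale above; library name prefixes in brackets. TP-DSCs stand at 9.36 to 12.9% and DP-DSCs at 8.24 to 11.7%, and the ranges overlap.

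The balance of the subunits varied far less than the share. Summed 60S over summed 40S reads gave log2 ratios of 0.58, 0.55 and 0.56 in TP-DSCs replicates 1, 2 and 3 and 0.60, 0.59 and 0.56 in DP-DSCs replicates 1, 2 and 3. The means were 0.565 ± 0.0170 in TP-DSCs and 0.586 ± 0.0187 in DP-DSCs (SD, n = 3 each), a difference of -0.021 with overlapping groups. No test was made of the share or of this ratio, since both are scores over genes chosen with results of these data known.

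The abundant members moved together from library to library. Of the variation of their log2 CPM around each member's own mean, 71.3% lay in the mean of the 76 members per library. The same quantity was 0.950% for 2151 other genes with a mean of 100 CPM or more, a mixed set whose mean is held near 0 by the scaling to gene reads. The sum of 17 translation factors and other TOP mRNAs moved in part the same way. It was 42526, 31017 and 33144 CPM in TP-DSCs replicates 1, 2 and 3 and 44175, 29084 and 42057 CPM in DP-DSCs replicates 1, 2 and 3. As for the members, DP-DSCs replicate 2 was the lowest, but the highest was DP-DSCs replicate 1. Eef1a1 was the largest part of the sum, with 18113 CPM in TP-DSCs replicate 1 and 10952 CPM in DP-DSCs replicate 2. Not every gene of the list followed: Eef1d had 252 CPM in TP-DSCs replicate 1 and 304 CPM in DP-DSCs replicate 2. After the library mean was removed, the SD of a member over the 6 libraries had a median of 0.111, against 0.277 before. Scaling to gene reads makes the levels of a set with so large a share of the reads depend on all other genes, so this coherence describes these libraries and was not tested.

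The common movement did not follow the groups, and it went in part with the prefix of the library name. In TP-DSCs replicates 1, 2 and 3 the mean log2 deviation of the members was 0.32, -0.07 and -0.15, and in DP-DSCs replicates 1, 2 and 3 it was 0.15, -0.35 and 0.10. Replicate 1 of each group, the library with the prefix 3840, was the highest of its group, and 72 of the 76 members had a lower mean log2 CPM over the 4140 libraries than over the 3840 ones, with a median log2 difference of -0.38 (4140 minus 3840). TP-DSCs replicate 1 held the highest CPM of the 6 libraries for 61 of the 76 members, and DP-DSCs replicate 2 the lowest for 65. In TP-DSCs replicate 1 only 1 of the 76 members lay below its own mean over the 6 libraries, namely Rpl7l1, which had 97.4 CPM there, its lowest value.

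**Figure D3:**
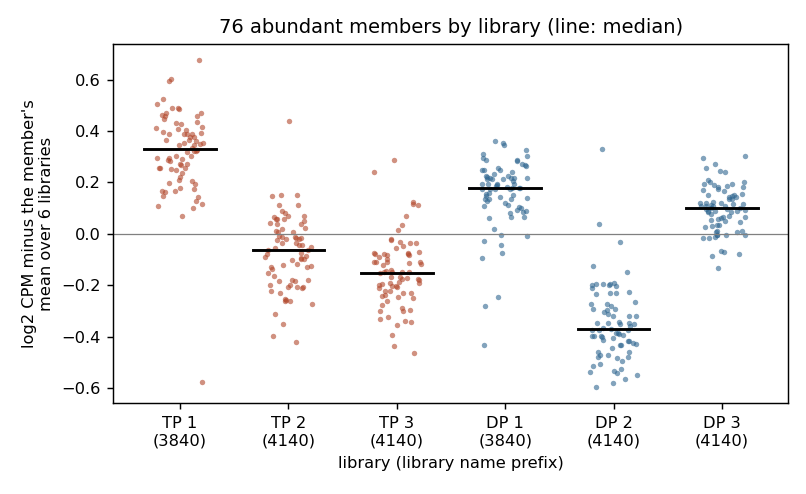
log2 CPM of the 76 abundant members in each library minus the member's mean over the 6 libraries, 1 point per member, with the median as a line. The members of a library shift together, up in TP-DSCs replicate 1 and down in DP-DSCs replicate 2, and both groups hold shifts in both directions.

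In the test of each gene between TP-DSCs and DP-DSCs (edgeR's quasi-likelihood test), 79 members had enough reads to be tested and 0 passed an adjusted p of 0.05. The same held for all 11925 genes tested, of which 0% passed. At an unadjusted p under 0.05 there was 1 member, Rpl30, against 6.10% of all tested genes (728 genes). With limma-voom 0 members passed as well, and the 1 member at an unadjusted p under 0.05 was Rpl34, while Rpl30 lay just above that limit. By DESeq2 the counts were 0 and 0 members, although DESeq2 called 278 other genes, 1.83% of those with reads. Fold changes were above 0 (higher in TP-DSCs) for 49 members and below 0 for 30, with a median log2 of 0.06, and 48.2% of all tested genes were above 0, with a median of -0.02. The balance of signs turned with single libraries: without TP-DSCs replicate 1 it was 6 above and 73 below, and without DP-DSCs replicate 2 it was 11 above and 68 below.

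Rpl30 was also the only 1 of the 83 members whose groups did not overlap, against 12.4% of all tested genes and 8.56% for genes lower in TP-DSCs. Its 0 reads in TP-DSCs and 55 reads in DP-DSCs, taken over each group, made it at least 14.5-fold lower in TP-DSCs with a floor of 3 reads over the group (edgeR adjusted p = 0.121). Rpl30 passed the read filter only through its reads in DP-DSCs, so its p-value, fold and lack of overlap are not evidence of a difference. With a mean count of at least 10 as the filter, Rpl30 was not tested. Of the 78 members tested then, 0 had an unadjusted p under 0.05 (edgeR). Its level in DP-DSCs was below 1 CPM, and 34.7% of its exon bases overlap a gene on the opposite strand, D730044K07Rik. The strand setting of the counting is not given in the sources used here, so reads from the 2 genes cannot be told apart.

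For the 76 abundant members the log2 fold changes lay between -0.14 and 0.31, and 58 were within 1.1-fold of equal levels. The 95% intervals of all 76 included 0. The lowest bound was -0.92 and the highest 1.10, and for 73 of the 76 the whole interval lay within a 2-fold change in either direction. A change of 2-fold or more was thus outside the interval for most members, while changes of the size measured could not be told from 0 with 3 libraries per group.

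Of the members with the smallest p among higher values in TP-DSCs, Rps28, a small protein at the mRNA exit channel, had 1241, 815 and 762 CPM in TP-DSCs replicates 1, 2 and 3 and 908, 565 and 784 CPM in DP-DSCs replicates 1, 2 and 3. Its log2 fold change was 0.31 with a standard error of 0.33 (edgeR adjusted p = 0.999). Rpl27, a 60S protein, was the steadiest, with 749, 791 and 749 CPM in TP-DSCs and 670, 594 and 750 CPM in DP-DSCs, and a log2 fold change of 0.17 ± 0.20 (SE). Rpl41 had 2196, 1696 and 1415 CPM in TP-DSCs and 1618, 1406 and 1554 CPM in DP-DSCs, with a log2 fold change of 0.21 ± 0.27 (SE). In each of these 3 genes at least 1 DP-DSC library lay above at least 1 TP-DSC library.

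Among members with lower values in TP-DSCs, Rps3, which lines the mRNA entry channel and also acts in DNA repair, had 2678, 2093 and 2247 CPM in TP-DSCs and 2602, 2070 and 2974 CPM in DP-DSCs, with a log2 fold change of -0.14 ± 0.28 (SE). Rpl13a, known for silencing of inflammatory mRNAs when released from the ribosome, had 2650, 1962 and 1854 CPM in TP-DSCs and 2585, 1838 and 2627 CPM in DP-DSCs, with a log2 fold change of -0.14 ± 0.30 (SE). Rpl3, a protein near the peptidyl transferase centre, had 2556, 1962 and 1980 CPM in TP-DSCs and 2628, 1820 and 2563 CPM in DP-DSCs, with a log2 fold change of -0.12 ± 0.29 (SE). The highest value of Rps3, of Rpl3 and of Rpl13 was in a DP-DSC library, and that of Rpl13a in TP-DSCs replicate 1. Rpl13 had 1991, 1642 and 1725 CPM in TP-DSCs and 2164, 1503 and 2005 CPM in DP-DSCs.

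The difference went with the length of the coding sequence and was higher for shorter members. Over the 76 abundant members the difference in mean log2 CPM, TP-DSCs minus DP-DSCs, had a Pearson r of -0.63 and a Spearman rho of -0.69 with log2 coding length. The median difference was 0.19 over 9 members with under 300 coding bases, 0.07 over 45 members with 300 to below 600 and -0.01 over 22 members with 600 or more. Pearson's r was -0.58 between the 2 libraries with the prefix 3840 and -0.45 among the 4 with 4140, and with 1 library left out it ranged from -0.68 to -0.31, the weakest without TP-DSCs replicate 1. These are relations across genes that share the same 6 libraries, and genes are not independent replicates, so no p is given.

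Other genes had a weaker correlation with length, but their medians differed between short and long genes about as much as those of the members. Over 1529 other genes with a mean of 100 CPM or more, reads in every library and an annotated coding length, Pearson's r was 0.08, and over the 750 of these within the members' range of coding lengths it was -0.12. The 47 other genes with under 300 coding bases had a median log2 difference of 0.16, and those of 600 bases or more within that range had a median of -0.05. For the members these medians were 0.19 and -0.01, so the shift between the shortest and longest classes was not particular to them. From 300 to below 600 bases the median was -0.02 over the other genes and 0.07 over the members, so the middle class differed. Within the members' range of lengths, r over the other genes was -0.21 for the prefix 3840 and -0.04 for 4140. Among the members, deviations in TP-DSCs replicate 1 had an r of -0.50 with coding length and those in DP-DSCs replicate 3 an r of 0.52, while DP-DSCs replicate 1 had an r of 0.01. RNA fragment size and the size selection of the libraries are not in the files, and their part in this relation was not tested.

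**Figure D4:**
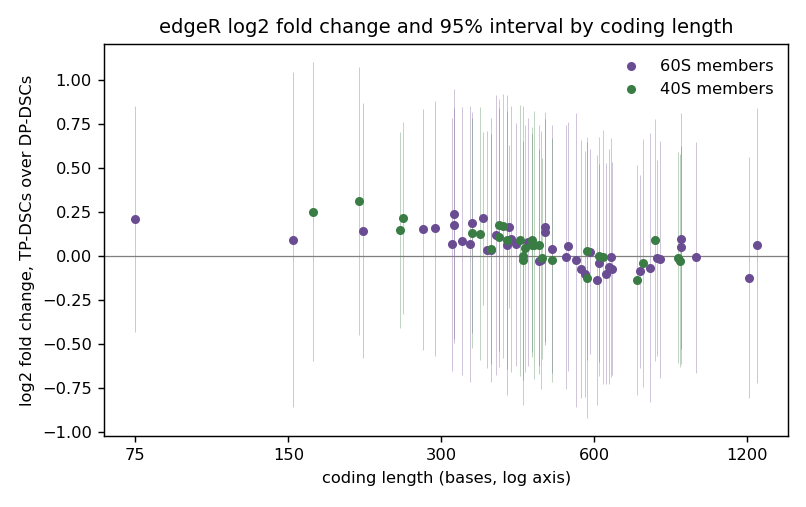
edgeR log2 fold change of the 76 abundant members, TP-DSCs over DP-DSCs, with its 95% interval, against coding length in bases (log axis). The points slope from above 0 at short lengths to about 0 or below at long ones, and each interval includes 0.

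By role, none of the groups of members held a gene that passed the test, and their median log2 fold changes lay between -0.02 and 0.09, beside 0.06 for all 79 tested members. The stalk (Rplp0, Rplp1, Rplp2 and Rpl12), which recruits elongation factors, had 3 of 4 members above 0, with log2 fold changes around a median of 0.05. Rplp2 had 1408, 990 and 1086 CPM in TP-DSCs and 1121, 844 and 1072 CPM in DP-DSCs, the largest difference of the stalk at a log2 fold change of 0.19 ± 0.27 (SE). Rpl5 and Rpl11, which carry the 5S ribosomal RNA and hold back Mdm2 when ribosome assembly is disturbed, had log2 fold changes of 0.10 ± 0.30 and 0.06 ± 0.30 (SE). Rpl11 had 1417, 875 and 969 CPM in TP-DSCs and 1196, 856 and 1072 CPM in DP-DSCs.

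The proteins around the peptide exit tunnel had 5 of 7 tested members above 0 with a median log2 fold change of 0.03, and Rpl26 is the eighth, without reads. Those of the mRNA entry and decoding region had 1 of 4 above 0 and a median of -0.02, and those of the mRNA exit had 3 of 5 above 0 and a median of 0.09. The beak of the 40S subunit (Rps10, Rps12 and Rps27a) had 2 of 3 above 0. Rps12 had 2605, 1721 and 1784 CPM in TP-DSCs and 2134, 1384 and 1875 CPM in DP-DSCs.

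Of 17 members whose human genes are mutated in Diamond-Blackfan anaemia, a failure of red cell production caused by too few ribosomes, 16 were tested, 12 were above 0 and 0 passed, with a median log2 fold change of 0.09. Rps29, a short member of this list, had 1135, 829 and 569 CPM in TP-DSCs and 910, 523 and 680 CPM in DP-DSCs. The 4 X-linked members (Rpl10, Rpl36a, Rpl39 and Rps4x) had 3 above 0 and a median of 0.09. Rpl39, the shortest of them, spread most, with 828, 432 and 421 CPM in TP-DSCs and 665, 343 and 564 CPM in DP-DSCs.

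The rule gave 7 pairs of a paralogue and its partner, and 4 pairs had reads in both genes. A ratio of the 2 genes within a library does not depend on how libraries are scaled, and it was tested between TP-DSCs and DP-DSCs with an exact two-sided permutation test, adjusted over the 4 pairs, which with 3 libraries against 3 cannot go below 0.1. No difference passed the test for Rpl22l1, Rpl36al or Rpl7l1 (adjusted p of 1 for each). The fourth, Rps27l over Rps27, gives no usable test, because Rps27 had 0 reads in 1 library. Shares of a pair's reads depend on the lengths of both genes.

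Rpl22l1 can take the place of Rpl22 and is known to increase in mice that lack Rpl22. Rpl22l1 made up 20.0, 27.2 and 19.0% of the reads of the pair in TP-DSCs replicates 1, 2 and 3 and 14.9, 28.4 and 20.6% in DP-DSCs replicates 1, 2 and 3. The highest share in each group was in replicate 2, the library where Rpl22 itself was lowest, at 451 CPM in TP-DSCs and 404 CPM in DP-DSCs. A low Rpl22 raises this share by arithmetic alone. Rpl22l1 itself was not highest in replicate 2 of either group, at 168 CPM in TP-DSCs and 160 CPM in DP-DSCs. The log2 ratio was -1.84 ± 0.36 in TP-DSCs and -1.93 ± 0.59 in DP-DSCs (SD, n = 3 each, exact permutation p = 1). Rpl22l1 had 197, 168 and 167 CPM in TP-DSCs and 121, 160 and 177 CPM in DP-DSCs, with a log2 fold change of 0.21 ± 0.21 (SE), the smallest p of any abundant member at 0.342 (edgeR, unadjusted).

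Rpl36al is the autosomal counterpart of the X-linked Rpl36a. It made up 25.3, 20.0 and 30.1% of the reads of the pair in TP-DSCs and 25.0, 29.2 and 24.6% in DP-DSCs, and the log2 ratio was -1.59 ± 0.39 in TP-DSCs and -1.49 ± 0.18 in DP-DSCs (SD, n = 3 each, exact permutation p = 0.9). Rpl36a had 875, 642 and 533 CPM in TP-DSCs and 671, 448 and 611 CPM in DP-DSCs. Both genes share much of their sequence with other genes, 61.3% of the windows of Rpl36al and 84.6% of those of Rpl36a. The gene that shared most was Gm49383 for Rpl36al and Rpl36a-ps2 for Rpl36a. Gm49383 overlaps Rpl36al in the genome and covered 63.1% of its exon bases on the same strand. The reads counted for Rpl36al and Rpl36a are therefore uncertain.

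Rpl7l1 was the scarcest paralogue with reads, at 57 CPM per kb against 2107 CPM per kb for Rpl7. It made up 3.22, 7.10 and 7.19% of the reads of the pair in TP-DSCs and 4.77, 8.09 and 4.99% in DP-DSCs. The log2 ratio was -4.10 ± 0.70 in TP-DSCs and -4.02 ± 0.45 in DP-DSCs (SD, n = 3 each, exact permutation p = 0.8). Rpl7l1 had 97.4, 161 and 177 CPM in TP-DSCs and 119, 182 and 154 CPM in DP-DSCs, so the library with the prefix 3840 was the lowest of each group.

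Rps27l, a target of p53, had 283, 339 and 199 CPM in TP-DSCs replicates 1, 2 and 3 and 211, 257 and 237 CPM in DP-DSCs replicates 1, 2 and 3, and the groups overlapped (log2 fold change 0.21 ± 0.23, SE). It had more reads than Rps27 in every library, with log2 ratios of 6.94 and 3.76 in TP-DSCs replicates 1 and 3 and of 5.36, 8.10 and 6.46 in DP-DSCs replicates 1, 2 and 3. The library of TP-DSCs replicate 2 held 5776 reads of Rps27l and 0 of Rps27, so the ratio there has no measured value. Rps27 has few reads and a transcript that is 98.5% shared with other genes, so the ratio is not a measure of how much of each protein is made. Rpl3l, Rpl10l and Rpl39l had no reads beside 1667, 1894 and 886 CPM per kb for Rpl3, Rpl10 and Rpl39.

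**Figure D5:**
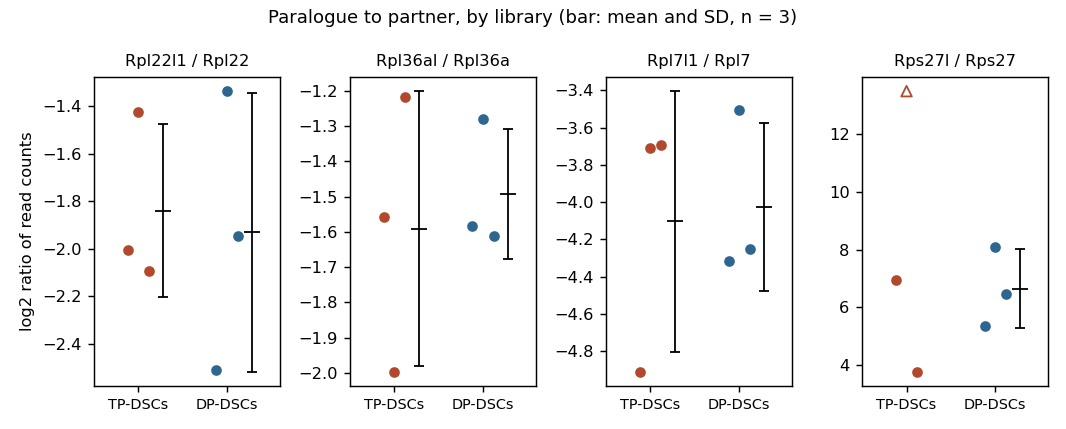
log2 ratio of the read counts of a paralogue to those of its partner in each library, for the 4 pairs with reads in both genes, each panel with its own axis; bars show the mean and SD of 3 libraries. The groups overlap for Rpl22l1, Rpl36al and Rpl7l1; the open triangle for Rps27l marks TP-DSCs replicate 2, where Rps27 had 0 reads and the height is set by the 0.5 added to each count, so TP-DSCs have no bar there.

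Gnb2l1, the receptor for activated C kinase on the 40S subunit, lies outside the name rule. It had 2489, 1964 and 1890 CPM in TP-DSCs and 2600, 1824 and 2765 CPM in DP-DSCs, with overlapping groups and a log2 fold change of -0.20 ± 0.30 (SE, edgeR adjusted p = 0.999).

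Genes around the ribosome also held none that passed the test. Of 17 translation factors and other TOP mRNAs, 6 were above 0 and 11 below, with a median log2 fold change of -0.09. Eif3k, a subunit of the initiation factor eIF3, had the smallest p of that list, with 158, 161 and 157 CPM in TP-DSCs and 226, 210 and 252 CPM in DP-DSCs (log2 fold change -0.55 ± 0.17 SE, edgeR adjusted p = 0.387). Npm1, a nucleolar chaperone of ribosome assembly, had 1708, 1785 and 1721 CPM in TP-DSCs and 1380, 1280 and 1543 CPM in DP-DSCs (log2 fold change 0.29 ± 0.21 SE, edgeR adjusted p = 0.999). The groups did not overlap for Eif3k or Npm1, as for 12.4% of all tested genes.

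The host genes of small nucleolar RNAs, whose spliced transcripts also begin with a TOP tract, had 4 of 5 above 0, with log2 fold changes around a median of 0.34. Gas5, the best known of them, had 546, 572 and 459 CPM in TP-DSCs and 552, 327 and 332 CPM in DP-DSCs (log2 fold change 0.36 ± 0.28 SE, edgeR adjusted p = 0.999). The regulators of TOP mRNAs in the mTORC1 pathway had 8 of 14 above 0 and a median of 0.02.

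Of 35 ribosome assembly factors, 15 were above 0 and 20 below, with a median log2 fold change of -0.12. Rrp12, needed for export of the subunits, had 17.2, 20.1 and 22.1 CPM in TP-DSCs and 33.2, 50.8 and 29.9 CPM in DP-DSCs (edgeR adjusted p = 0.569). Gnl3, the nucleolar GTPase nucleostemin, had 130, 153 and 201 CPM in TP-DSCs and 111, 121 and 98.3 CPM in DP-DSCs (edgeR adjusted p = 0.580). The groups did not overlap for Rrp12 or Gnl3, which went in opposite directions. The RNA polymerase I machinery, which makes ribosomal RNA, had 5 of 11 above 0 and a median of -0.07.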

How the data were processed

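Whole-number read counts per gene symbol were deposited for each of the 6 samples, and the authors applied no normalization that the values show. The submitters' processing notes list STAR 2.7.3a, Partek and DESeq2 3.5 with build mm10; their roles, the counter, its strand setting and its treatment of reads with several matches are not given. Rows for reads in no gene (14.1 to 20.3% of all reads) and ambiguous reads (1.09 to 1.86%) entered neither library sizes nor tests. CPM is counts per 1000000 gene reads, without further scaling.

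Groups followed the cell subtype label. Counts were fitted in R 4.3.3 with edgeR 4.0.16: filterByExpr (minimum count 10, minimum total 15), TMM factors, and the quasi-likelihood F test on group alone, with p adjusted by Benjamini-Hochberg over all 11925 genes tested (threshold 0.05). Standard errors are the log2 fold change over the square root of F. The procedure was tested on simulated data. limma 3.58.1 (voom) and DESeq2 1.42.0 were alternatives, DESeq2 on all rows with its own filtering. Replicates of a group differed far beyond counting noise (chi-square per degree of freedom at least 112.2), so each library counts once.

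Paralogue ratios are log2 of counts plus 0.5. Coordinates, transcript and coding lengths and shared windows were read from GENCODE M21 on GRCm38, which is mm10, using the shortest well-supported transcript with the principal coding length; start sequences came from RefSeq. The genes named are all members of paralogue pairs, the 6 members with the smallest p in each direction, the 6 highest and 6 lowest by CPM, and up to 3 by p in each list. Members, lists and this rule were chosen with earlier results of these data known. Amino acid sequences were not used here. Ribosomal protein genes outside the name rule other than Gnb2l1 are not reported here.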

Additional observations from a re-analysis of the deposited data

How the results depend on the processing

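No member passed the adjusted threshold under any of the 15 alternatives: 3 other scalings, DESeq2, limma-voom, no filter, a mean count of at least 10, the library name prefix as a block, prefix 4140 alone and leaving out each library. Over all genes the count of calls was 0 under each of these except DESeq2, with 278, 42 higher and 236 lower in TP-DSCs; the cause was not tested. No paired analysis was possible because replicate numbers are in order of deposit and pair no samples.

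Signs of the small fold changes were not stable. Of 37 named and tested members, 11 changed sign with prefix 4140 alone and up to 21 when 1 library was left out (without TP-DSCs replicate 1). With prefix 4140 alone the log2 fold change was -0.13 for Rpl11, -0.026 for Rpl12, -0.071 for Rpl22l1, -0.095 for Rpl35, -0.042 for Rpl36al, -0.16 for Rpl39, -0.14 for Rplp1, -0.015 for Rps14, -0.063 for Rps23, -0.028 for Rps27a and -0.056 for Rps4x. It became 0.013 for Rplp0 and 0.0088 for Rps2 with DESeq2's size factors, 0.013 and 0.0090 with DESeq2, 0.0046 and 0.00093 with library size only, and -0.74 for Rps27 in limma-voom. With 1 library left out, the log2 fold change ranged from -0.29 to 0.047 for Rpl10, -0.27 to 0.22 for Rpl11, -0.19 to 0.15 for Rpl12, -0.28 to 0.014 for Rpl13, -0.13 to 0.34 for Rpl22, -0.23 to 0.18 for Rpl35, -0.070 to 0.41 for Rpl36a, -0.15 to 0.40 for Rpl36al, -0.40 to 0.31 for Rpl39, -0.17 to 0.28 for Rpl4, -0.064 to 0.37 for Rpl41, -0.13 to 0.23 for Rpl5, -0.26 to 0.12 for Rpl7, -0.23 to 0.076 for Rpl7l1, -0.18 to 0.12 for Rplp0, -0.28 to 0.26 for Rplp1, -0.058 to 0.32 for Rplp2, -0.28 to 0.12 for Rps10, -0.13 to 0.32 for Rps12, -0.10 to 0.26 for Rps14, -0.24 to 0.11 for Rps15, -0.15 to 0.085 for Rps2, -0.24 to 0.24 for Rps23, -0.11 to 0.24 for Rps26, -1.28 to 1.59 for Rps27, -0.16 to 0.24 for Rps27a, -0.030 to 0.48 for Rps28, -0.11 to 0.49 for Rps29, -0.16 to 0.22 for Rps4x and -0.18 to 0.074 for Rpsa.

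The difference in log2 ratio, TP-DSCs minus DP-DSCs, ranged with 1 library left out from -0.20 to 0.39 for Rpl22l1 over Rpl22, -0.29 to 0.10 for Rpl36al over Rpl36a, -0.29 to 0.32 for Rpl7l1 over Rpl7 and -1.29 to 3.57 for Rps27l over Rps27, where 1 ratio is set by the added count. Within prefix 4140 it was -0.12 for Rpl22l1 and 0.18 for Rpl7l1, and for Rpl36al 0.024 within prefix 3840 and 0.091 against the reads of all members, an alternative chosen after seeing the data. The 60S over 40S difference was 0.00856 with medians of log2 CPM, and the share difference was -0.103 points with all reads as the denominator. The 76 abundant members had at least 2429 reads in every library, and with 3 libraries per group the median standard error of their log2 fold changes was 0.30.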

Other observations

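Several pseudogenes that share sequence with members had rows of their own. Gm15421, which shares 43.7% of the windows of Rpl22l1, had 22, 252 and 444 reads in TP-DSCs replicates 1, 2 and 3 and 59, 407 and 489 reads in DP-DSCs replicates 1, 2 and 3. Rpl31-ps12, which shares 40.2% of the windows of Rpl31, had 3, 137 and 223 reads in TP-DSCs and 37, 146 and 131 reads in DP-DSCs. In both rows replicate 1 of each group, the library with the prefix 3840, was the lowest of its group. Rps15a-ps6, which shares 20.3% of the windows of Rps15a, had 369, 85 and 106 reads in TP-DSCs and 208, 354 and 365 reads in DP-DSCs, and there the prefixes did not part in the same way. These rows were singled out after their values were seen, and whether such reads came from the pseudogene or from its parent gene was not tested.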
